A study of Mus musculus with 6 samples.

Results

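A set of 10 neuromodulator receptor genes was followed in mouse hippocampus, in N-cre controls and in N-cre;Fox1 animals. The members are Chrm1, Chrm2, Chrm3, Chrna4, Chrna7, Htr1a, Htr2c, Htr4, Htr5a and Cnr1, 10 of the 53354 genes named in the deposited isoform table. They were found by matching each isoform name without its final number to the gene symbol, which returned 29 of 133944 isoforms. Total hippocampal RNA was sequenced from 3 mice of each genotype, all 3 months old and on the C57BL/6 strain. Both genotypes carried Cre recombinase driven by the nestin promoter. The N-cre;Fox1 mice also carried an R26-Fox1 allele, in which removal of a stop cassette by Cre lets the CAG promoter drive an Rbfox1 cDNA from the Rosa26 locus. The nestin promoter acts in neural progenitors from before birth. In the hippocampus the authors reported Cre activity in dentate granule cells and in CA1 and CA3 pyramidal cells. They saw no Rbfox1 staining together with GFAP, a marker of glia. The comparison asks whether mice with the allele, made to raise Rbfox1, a regulator of splicing and RNA stability in neurons, have other levels or other isoforms of these receptors.

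The receptors read out transmitters that set the state of hippocampal circuits rather than carry fast point-to-point signals. Acetylcholine acts on muscarinic receptors (Chrm genes), which couple to G proteins, and on nicotinic receptors (Chrn genes), which are cation channels built from several subunits. Serotonin acts on the Htr genes, nearly all of them G protein-coupled, and endocannabinoids act on the presynaptic CB1 receptor made from Cnr1. Of these, Htr2c stands out in RNA biology, because its transcript is both edited and spliced at an alternative donor site.

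The libraries held 40463587 to 62141336 expected counts, the estimated read pairs that RSEM assigns to each isoform. The Rbfox1 gene sum gave 15286, 14456 and 14698 normalized counts in N-cre mice and 15939, 13571 and 15283 in N-cre;Fox1 mice, so the targeted gene did not separate the genotypes in these counts (log2 difference 0.01 ± 0.06 SE, edgeR adjusted p = 0.992), and genotypes are given as labelled. Snap25, a presynaptic protein of neurons, lay between 87198 and 96261 normalized counts in all mice. A pair of mice, N-cre replicate 3 and N-cre;Fox1 replicate 2, stood apart in markers of the choroid plexus, the epithelium that secretes cerebrospinal fluid beside the hippocampus. The 12 markers summed to 2319 CPM, the counts scaled to library size, in N-cre replicate 3 and 5223 in N-cre;Fox1 replicate 2, against 33.7 to 44.1 in the other 4 mice. None of the 12 was at 0 in any mouse, all 12 were higher in both of these mice than in any other, and Ttr (transthyretin), the leading one, reached 111010 and 251900 normalized counts against 274 to 672.

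Among the members, Htr2c varied most between mice. It encodes the serotonin 5-HT2C receptor, a Gq-coupled receptor that is also abundant in choroid plexus epithelium. Normalized counts of the gene sum were 2072, 2535 and 3188.5 in N-cre mice and 2053, 4908 and 2387 in N-cre;Fox1 mice. The highest value of each genotype came from the mouse high in choroid plexus markers, and the lower of these 2 mice was 1.26-fold above the highest of the other mice. The genotypes overlapped, with a log2 difference of 0.27 ± 0.43 (SE, edgeR adjusted p = 0.972). Without N-cre;Fox1 replicate 2 the difference was -0.22, and without both mice high in choroid plexus markers it was -0.05 ± 0.14 (edgeR adjusted p = 0.997), 2303 against 2220 normalized counts. The coefficient of variation was 21.6% in N-cre and 50.1% in N-cre;Fox1 mice. Among the 4893 genes whose mean count lay within a factor of 2 of Htr2c, 99.8% varied less in N-cre;Fox1 mice, and their median was 3.65%. The part of choroid plexus RNA in these Htr2c values was not tested. In bulk tissue, fewer cells of a type and less RNA per cell cannot be told apart.

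Htr2c also has a pair of isoforms that differ in the protein they code for. The gene lies on the plus strand of chrX:146962513-147197277 (mm10). Htr2c-201 codes for the full receptor of 459 codons. Htr2c-207 uses a donor site inside the coding exon at chrX:147169570-147169770, leaves out the last 95 of its 201 bases, and ends at a stop codon after 172 codons. The exon is shown because the bases left out, in capitals, hold the stretch known to be edited by ADAR enzymes, and because Htr2c-207 is told apart from the other annotated isoforms only by the splice junction this donor makes. The exon reads as follows, 5′ to 3′.
Htr2c exon: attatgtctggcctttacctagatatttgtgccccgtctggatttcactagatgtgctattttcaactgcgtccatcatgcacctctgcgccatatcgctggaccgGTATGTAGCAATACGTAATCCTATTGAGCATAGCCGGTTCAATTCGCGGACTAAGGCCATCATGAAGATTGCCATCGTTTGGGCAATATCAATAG
The transcript Htr2c-207 is given from 30 bases before its junction, through 58 bases of the next exon, to its stop codon in capitals.
Htr2c-207: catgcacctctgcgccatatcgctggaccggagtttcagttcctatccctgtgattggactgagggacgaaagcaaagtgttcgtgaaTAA
The capitals of the exon begin with GT, the usual first bases of an intron, as the donor of Htr2c-207 requires. Htr2c-207 has 0 bases and 1 junction found in no other annotated isoform of the gene, so its estimate rests on read pairs that cross that junction. Editing itself cannot be read from isoform counts.

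The truncated isoform took between 8.5% and 27% of the Htr2c count. Its share was 22.1%, 10.9% and 27% in N-cre mice and 8.5%, 26.9% and 10.6% in N-cre;Fox1 mice, which overlap. The 2 mice high in choroid plexus markers had the 2 highest shares. N-cre replicate 1, with a marker sum of 33.7 CPM, had a share of 22.1% (95% Wilson interval 20.5% to 23.8%), and the other 3 mice low in these markers had 8.5% to 10.9%. The intervals cover counting error only, not the spread between mice or the assignment of reads to isoforms, and the part of choroid plexus RNA in the shares was not tested. The mean share was 20% ± 8.23 (SD, n = 3) in N-cre and 15.3% ± 10.1 in N-cre;Fox1 mice, a difference of -4.67 percentage points (exact permutation test, two-sided p = 0.5). Single mice moved it, to -10.5 points without N-cre;Fox1 replicate 2, -9.2 without N-cre replicate 2, -2.29 without N-cre;Fox1 replicate 3, -1.26 without N-cre;Fox1 replicate 1 and -1.18 without N-cre replicate 3. Without the 2 mice high in choroid plexus markers, the shares were 22.1% and 10.9% against 8.5% and 10.6%, a difference of -6.97 points. These groups do not overlap, but they hold 2 mice each, and groups so small often do not. The alternative was chosen after seeing the data, and the share over all isoforms was not counted for it. The range of 18.5 points over the mice compares with a median range of 6.94 points over the 20503 isoforms with a mean share of at least 5%, and 87.3% of these had a smaller range. In counts, Htr2c-207 gave 458, 277 and 859 in N-cre mice and 175, 1321 and 252 in N-cre;Fox1 mice, and Htr2c-201 gave 1564, 2236 and 2302 against 1878, 3537 and 2053. Both isoforms were highest in N-cre;Fox1 replicate 2. Htr2c-202, which differs from Htr2c-201 by an added exon and codes for as many codons, held a mean share of 1.34%.

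**Figure D1:**
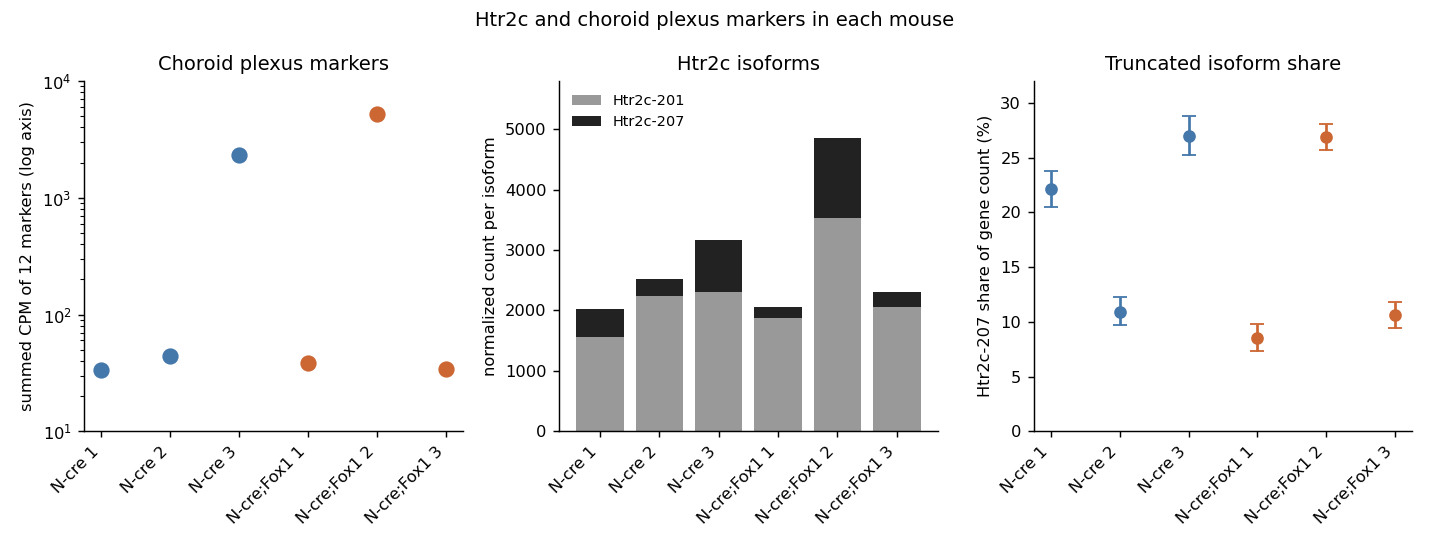
Summed CPM of 12 choroid plexus markers (left, log axis), normalized counts of Htr2c-201 and Htr2c-207 stacked (middle) and the share of Htr2c-207 in the gene count with 95% Wilson intervals (right), for each mouse. N-cre replicate 3 and N-cre;Fox1 replicate 2 lead in the markers and in Htr2c counts, and N-cre replicate 1 has a share of 22.1% with a marker sum of 33.7 CPM.

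The gene is X-linked, and replicate 1 of each genotype was the mouse with high Xist RNA, the transcript that coats the silenced X chromosome of females. Its expected counts there were 27387 and 22347, against 16.9 to 22.3 in the other mice. Htr2c gave 2072 and 2053 normalized counts in these 2 mice, the 2 lowest of all. Leaving both out gave a log2 difference of 0.36 between the genotypes (edgeR adjusted p = 0.94). The part of sex in the Htr2c values was not tested.

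Across the 10 receptors, no gene sum passed an adjusted p of 0.05 in edgeR's quasi-likelihood test, in DESeq2 or in limma-voom. Over all 18924 genes tested 5 passed, or 0.0264%. At an unadjusted p under 0.05 there were 2 members of 10, Htr1a and Chrna7, where 6.19% of all genes reached that level, and DESeq2 and limma-voom also gave 2 each. The normalized counts of the genotypes did not overlap for the same 2 members, against 12.1% of all genes. Of the members, 5 had a higher and 5 a lower mean with the Fox1 allele, with a median log2 difference of -0.003 where that of all genes was 0.00. The median size of the difference was 0.10 for the members and 0.07 for all genes.

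Htr1a encodes the 5-HT1A receptor, which couples to Gi and hyperpolarises pyramidal neurons of the hippocampus. Its transcript is a single exon on the plus strand of chr13:105443639-105448122. Normalized counts were 1921.5, 2012.6 and 1894.5 in N-cre mice and 1793.2, 1679.4 and 1672.6 in N-cre;Fox1 mice. Every N-cre;Fox1 mouse lay below every N-cre mouse. The difference was -0.18 ± 0.05 on the log2 scale, a change of -11.7% (edgeR unadjusted p = 0.00318, adjusted p = 0.633), and adjusted p ran from 0.168 to 1.0 over the alternatives. Without the 2 mice high in choroid plexus markers it was -0.18 ± 0.06. The 8 markers of CA1 pyramidal cells were lower as well, summing to 858 to 935 CPM in N-cre mice and 787 to 857 CPM in N-cre;Fox1 mice. All 8 were lower, by a median of -0.08 on the log2 scale, and 0 of them reached an unadjusted p under 0.05. The 8 general neuron markers were all lower too, by a median of -0.03, and again 0 of them reached that level. Their sums overlapped, at 4687 to 5020 CPM in N-cre and 4554 to 4867 CPM in N-cre;Fox1 mice. Markers of CA2 and CA3 pyramidal cells had 4 higher and 4 lower. Those of dentate granule cells had 6 higher and 2 lower, with a median of 0.06. The part of these cells in the Htr1a value was not tested.

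Chrna7 encodes the α7 nicotinic subunit, which forms channels of its own with high calcium permeability, on the minus strand of chr7:63098692-63212569. Normalized counts were 768, 832 and 832 in N-cre mice and 934, 874 and 1008 in N-cre;Fox1 mice. The genotypes did not overlap, and the values nearest to each other were 832 and 874. The log2 difference was 0.21 ± 0.07, or 15.8% (edgeR unadjusted p = 0.0124, adjusted p = 0.747), and adjusted p ran from 0.437 to 1.0 over the alternatives. Leaving out the 2 mice high in choroid plexus markers gave 0.28 ± 0.08. Astrocyte markers were higher as well. Their 8 genes summed to 4131 to 4319 CPM in N-cre and 4371 to 4725 CPM in N-cre;Fox1 mice. Of these, 6 of 8 were higher and 4 had an unadjusted p under 0.05, where 6.19% of all genes reached that level. Dentate granule cell markers also had 6 of 8 higher, with 2 at that level. Markers of GABAergic interneurons had 4 of 10 higher and 6 lower, with 1 at that level. The part of these cell types in the Chrna7 value was not tested. Nearly all of the gene sum was the coding isoform Chrna7-201, and Chrna7-202, annotated as a processed transcript, held 3.61 to 9.88 normalized counts.

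Chrna4 encodes the α4 subunit of the high-affinity nicotinic receptor, where it pairs with β2, on the minus strand of chr2:181018380-181043546. Its normalized counts were 1557, 1510 and 1481 in N-cre mice and 1356.5, 1618 and 1319 in N-cre;Fox1 mice. N-cre;Fox1 replicate 2 was the highest of all and the other 2 mice of its genotype were the lowest. The log2 difference was -0.08 ± 0.07 (edgeR adjusted p = 0.93), and -0.20 ± 0.06 without the 2 mice high in choroid plexus markers (edgeR adjusted p = 0.654). The partner subunit Chrnb2 stood at 15.1 ± 0.51 (SD, n = 6) CPM per kilobase, above Chrna4 at 6.13 ± 0.47 on the same scale.

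Chrm1 encodes the M1 receptor, the main Gq-coupled muscarinic receptor of pyramidal cells, on the plus strand of chr19:8663789-8683587. Its normalized counts were 14726, 13855 and 14166 in N-cre and 14786, 12653 and 14736 in N-cre;Fox1 mice. N-cre;Fox1 replicate 2 was the lowest of all, and the other 2 mice of its genotype were the highest. The log2 difference was -0.02 ± 0.06 (edgeR adjusted p = 0.986). Chrm3, the M3 receptor with the same G protein (chr13:9875486-10360847, minus strand), gave 3343, 3037 and 3228 against 3364.5, 2735 and 2959, with a difference of -0.09 ± 0.08, which was -0.17 without N-cre;Fox1 replicate 1 and -0.02 without N-cre;Fox1 replicate 2. Chrm2, the Gi-coupled M2 receptor that serves as an autoreceptor on cholinergic terminals (chr6:36388084-36528414, plus strand), gave 361, 402 and 340 against 368, 397 and 366, with a difference of 0.04 ± 0.10. Both genes overlapped between genotypes. The exons of Chrm1 overlap those of Gm22820, and the exons of Chrm2 those of 9330158H04Rik, each on the other strand, and read pairs of such a pair cannot be told apart without strand.

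Cnr1, the CB1 receptor that damps transmitter release and is dense on cholecystokinin interneurons, varied little (chr4:33924593-33948831, plus strand). Its normalized counts were 9463, 10079 and 9564 in N-cre mice and 9785, 9474 and 10129 in N-cre;Fox1 mice. The coefficients of variation were 3.4% and 3.35%, and the log2 difference was 0.01 ± 0.04 (edgeR adjusted p = 0.986).

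Htr4 encodes the Gs-coupled 5-HT4 receptor. It gave 735, 604 and 638 normalized counts in N-cre mice and 748, 723 and 714 in N-cre;Fox1 mice, where N-cre replicate 1 lay among the N-cre;Fox1 values and the other 2 N-cre mice below them. The log2 difference was 0.14 ± 0.08 (edgeR adjusted p = 0.852). Htr5a, a Gi-coupled serotonin receptor (chr5:27842149-27855088, plus strand), gave 838, 837.5 and 692 against 686, 759 and 741, so that 2 N-cre mice were above and 1 was among the N-cre;Fox1 mice. Its log2 difference was -0.12 ± 0.09 (edgeR adjusted p = 0.908), and -0.23 ± 0.08 without the 2 mice high in choroid plexus markers (edgeR adjusted p = 0.76).

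**Figure D2:**
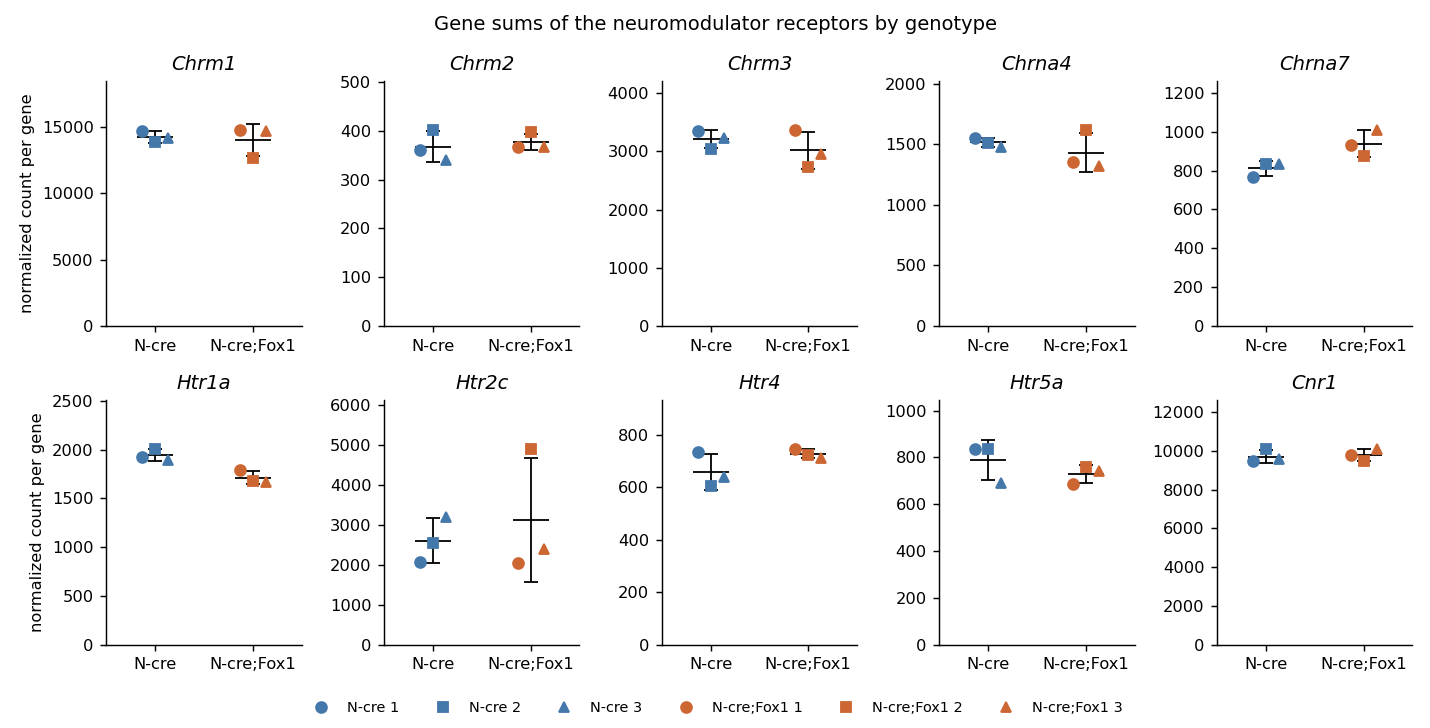
Normalized count of each receptor gene in every mouse, from 0, with the marker shape giving the replicate and black lines the mean and SD of 3 mice. The genotypes do not overlap for Chrna7 and Htr1a, and the mouse at 4908 sets the wide SD of Htr2c in N-cre;Fox1.

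Of the 29 isoforms, 16 had enough counts to be tested, 9 had some counts and 4 were at 0 in every mouse. In edgeR's test 0 of the 16 passed an adjusted p of 0.05, as did 0.0% of the 50556 isoforms tested, and DESeq2 and limma-voom also gave 0 among the members. At an unadjusted p under 0.05 there were 2, Htr1a-201 and Chrna7-201, against 4.78% of all isoforms, and both tools again gave 2. These 2 were also the member isoforms whose normalized counts did not overlap between genotypes, against 11.5% of all. The log2 differences of tested member isoforms ran from -0.20 (Cnr1-202) to 0.38 (Htr2c-202).

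Shares could be compared for 8 isoforms of Chrm1, Chrm3, Htr2c and Cnr1, the genes with 2 isoforms at a mean share of at least 5%. None of the 8 separated the genotypes, against 11.7% of all isoforms by the same rule. With 3 mice in each genotype the exact permutation test cannot give a p under 0.1, and the smallest found was 0.2. When counts were divided by annotated length before taking shares, 1 of the 8 separated them, Chrm1-201 at a mean of 70.5% in N-cre and 71.5% in N-cre;Fox1 mice. How many of all isoforms did so per length was not counted.

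The paired isoforms of the other receptors differ outside the coding sequence. Chrm1-201 and Chrm1-202 both code for 460 codons, and Chrm1-202 has 2020 further bases of 3′ untranslated region that no other isoform holds. Chrm1-202 also has 3 exons against 2. Chrm1-201 has 0 bases and 1 junction of its own, so its share rests in part on how RSEM divided shared read pairs. Chrm1-201 held 66.1%, 63.5% and 64.3% of the gene count in N-cre mice and 65.7%, 66.3% and 65.5% in N-cre;Fox1 mice, a difference of 1.19 points (exact permutation p = 0.3) that was 1.93 without N-cre replicate 1 and 0.63 without N-cre replicate 2. Cnr1-201 and Cnr1-202 share 473 codons and differ in the first exon. Cnr1-202 held 13.8%, 9.21% and 16.2% in N-cre mice and 9.91%, 12.4% and 11.3% in N-cre;Fox1 mice, a difference of -1.88 points (exact permutation p = 0.5). The N-cre mice held both the lowest and the highest share, and the difference was -3.81 points without N-cre replicate 2 and -0.291 without N-cre replicate 3. Chrm3-201 is the coding exon of Chrm3 alone and lies wholly within Chrm3-202, with 0 bases and 0 junctions of its own, so its share of 14.5% to 17.3% comes from how RSEM divided shared read pairs.

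**Figure D3:**
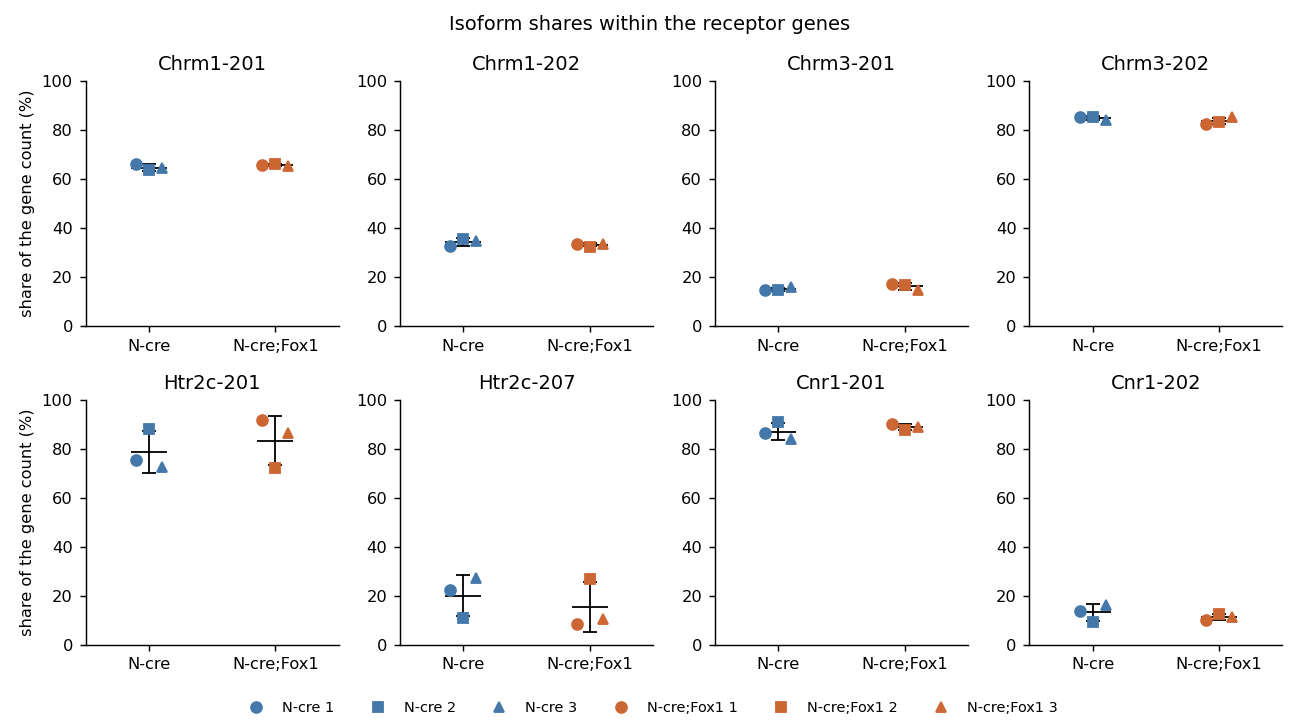
Share of each isoform in its gene's expected count, in percent from 0 to 100, for every mouse, with black lines for the mean and SD of 3 mice. Htr2c-207 spreads from 8.5% to 27% over the 6 mice, while Chrm1-201 stays between 63.5% and 66.3%.

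Levels were set side by side per length, as CPM per kilobase of transcript. Chrm1 was highest at 55.2 ± 3.2 (SD, n = 6) and Cnr1 followed at 31.7 ± 0.96. Chrm3 at 14.9 ± 1.19 came next, with Htr2c at 11.4 ± 4.35, Chrna7 at 7.91 ± 0.77, Htr1a at 7.69 ± 0.58 and Chrna4 at 6.13 ± 0.47. Htr4 at 2.81 ± 0.24, Htr5a at 2.66 ± 0.24 and Chrm2 at 1.24 ± 0.08 closed the order, so the highest and lowest means were 44.6-fold apart. Of the 9 neighbouring pairs, 5 did not overlap in any mouse. Chrm3 and Htr2c, Htr2c and Chrna7, Chrna7 and Htr1a, and Htr4 and Htr5a overlapped, and their order is not settled by these mice. The place of Chrna7 depended on the length used. Per kilobase of the longest isoform it stood at 5.86 (5.15 to 6.75), below every value of Htr1a and Htr2c, and overlapped Chrna4 at 6.09 (5.45 to 6.68). That longest isoform is Chrna7-202, which held a mean share of only 0.88% of the Chrna7 count, against 99.1% for Chrna7-201. Htr2c ranged from 8.17 to 19.6, and its level in N-cre;Fox1 replicate 2 exceeded every value of Chrm3.

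**Figure D4:**
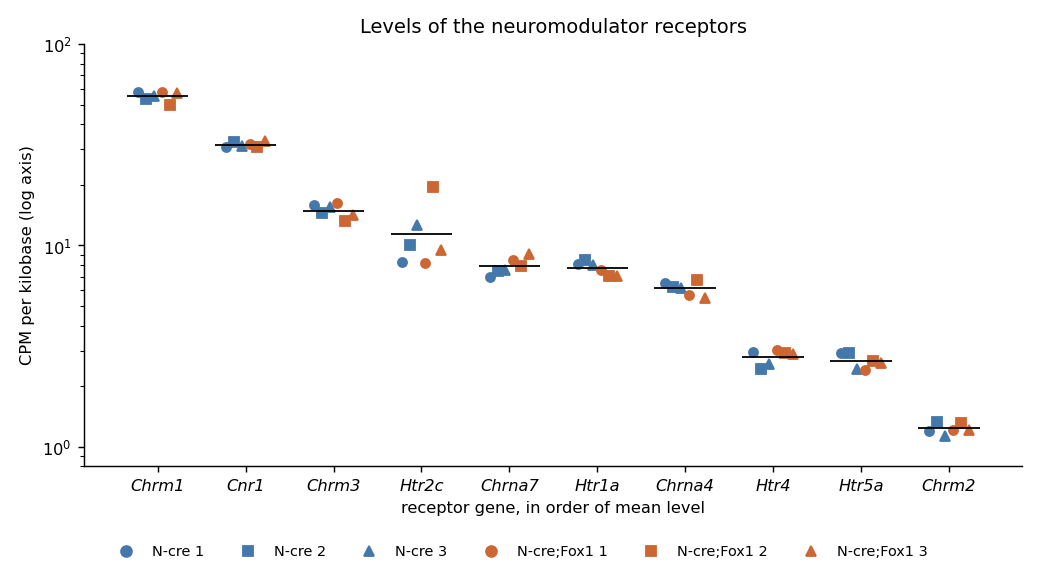
Level of each receptor gene in CPM per kilobase on a log axis, in order of the mean (line), with one point per mouse. Chrm1 and Cnr1 stand above all others, and the Htr2c points reach from the level of Htr1a to above that of Chrm3.

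The remaining genes of these transmitter systems were counted in the same way. Of 146 further genes in 10 lists, 130 were tested and 0 passed an adjusted p of 0.05, by edgeR or DESeq2. At an unadjusted p under 0.05 there were 9 of the 130, where 6.19% of all genes reached that level. Between genotypes 13 (10%) did not overlap, against the 12.1% of all genes. There were 52 higher and 78 lower, with a median log2 difference of -0.01. All 5 muscarinic genes were tested and 0 reached an unadjusted p under 0.05. Chrm4, the Gi-coupled M4 receptor, stood at 8.78 ± 1.47 CPM per kilobase and came nearest (log2 difference 0.29 ± 0.13, edgeR unadjusted p = 0.0514). Of 16 nicotinic subunits 10 were tested, 4 higher and 6 lower, with Chrna7 the 1 at an unadjusted p under 0.05. Of 14 serotonin receptors 12 were tested, 4 higher and 8 lower, with Htr1a and Htr2a at an unadjusted p under 0.05. Htr2a, the Gq-coupled receptor targeted by psychedelics, stood at 2.62 ± 0.28 on the scale of CPM per kilobase, and its log2 difference was -0.20 ± 0.09 with overlapping genotypes. Of 13 cannabinoid genes 12 were tested, 4 higher and 8 lower. Cnr2, the CB2 receptor of immune cells, was low at 0.064 ± 0.031 on that scale.

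Genes of these lists with an unadjusted p under 0.05 and no overlap between genotypes were few, and none passed adjustment. Napepld, which makes the anandamide class of lipids, gave 1678, 1634 and 1685 normalized counts in N-cre mice and 2020, 1708 and 1816 in N-cre;Fox1 mice (log2 difference 0.15 ± 0.06, edgeR adjusted p = 0.794). Ddc, the decarboxylase that makes serotonin and dopamine, gave 305, 287 and 263 against 173, 201 and 245 (-0.47 ± 0.14, edgeR adjusted p = 0.693). Among other modulator receptors, of which 34 of 37 were tested, the adenosine receptor Adora2a was lower by -0.61 ± 0.19 (edgeR adjusted p = 0.693). Adora2a is also 1 of 8 striatal markers in the lists, whose sum ran from 139 to 158 CPM in N-cre and from 124 to 173 CPM in N-cre;Fox1 mice. Of these 8 markers 6 were lower and 2 higher, with a median log2 difference of -0.07, and 2 reached an unadjusted p under 0.05, Adora2a and Rgs9, a regulator of G protein signalling named after its value was seen. The part of striatal tissue in the Adora2a value was not tested. The somatostatin receptor Sstr3 was lower by -0.13 ± 0.04 and the galanin receptor Galr2, at 24.9 to 59.3 normalized counts, was higher by 0.81 ± 0.27, with edgeR adjusted p = 0.699 and 0.742. The 42 G proteins, effectors and regulators were all tested, with 19 higher, 23 lower and 2 at an unadjusted p under 0.05. The cholinergic enzymes and transporters (6 of 8 tested) and the nicotinic chaperones and prototoxins (10 of 10) held 0 at that level, and the serotonin synthesis and uptake genes (6 of 8) held 1, Ddc. The 3 genes of the editing enzyme family, Adar and Adarb1, which are known to edit Htr2c RNA, and Adarb2, each differed by 0.004 on the log2 scale, with 0 of 3 at an unadjusted p under 0.05.

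Rbfox proteins bind the RNA word UGCAUG, so the letters TGCATG were searched on the mRNA strand in the 3′ untranslated region of the leading isoform of each member, from the GENCODE M21 transcripts. They occurred 14 times in 7 of the 10 members. Over all 14774 tested genes with a coding leading isoform, 34.0% held the word. Their median region was 1059 bases, and all members but Chrna7 have longer ones, so the 2 shares are not comparable. Htr2c held 4 in 2679 bases, where 60.7% of genes with a region of at least that length held 1 or more in their first 2679 bases. Chrna7 held 1 in 532 bases, against 15.6% of genes by the same count, and Htr1a held 0 in 2603 bases, against 59.3%. Chrm3 and Chrna4 also held 0, against 44.9% and 56.7%. Chrm1 and Htr5a held 2 each, against 52.9% and 75.5%. Chrm2 and Htr4 held 1 each, against 73.8% and 68.3%, and Cnr1 held 3, against 73.9%. A match is a description of letters and not a binding site. The shorter GCATG, without the first T, is also given as an Rbfox word but was not searched. It lies in lower case in the Chrna7 stretch below, and members without TGCATG may hold it. A link between the word TGCATG and the counts was not tested. Of the other members with the word, Chrm1 and Htr5a had a lower log2 difference than 0, and Chrm2, Htr2c, Htr4 and Cnr1 a higher one. The words are shown for Chrna7, picked for its higher counts in every N-cre;Fox1 mouse, and for Htr2c, which held most, in capitals with 12 bases on each side.
Chrna7, chr7:63098889-63098918, minus strand: gtggcgcatgccTGCATGccccttgtcatg
Htr2c, chrX:147195544-147195573, plus strand: caaagtgaaattTGCATGttgagccttatt
Htr2c, chrX:147196427-147196456, plus strand: ggtcagttgaacTGCATGttaaaacaatta
Htr2c, chrX:147196545-147196574, plus strand: cagatggtgctgTGCATGtaacaccatgta
Htr2c, chrX:147196566-147196595, plus strand: caccatgtatgtTGCATGagtccactgatc
The Chrna7 word lay 318 bases after the stop codon. The last 2 words of Htr2c lay close together, at 1962 and 1983 bases after it.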

How the data were processed

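Libraries were made from total hippocampal RNA with a strand-marking kit. The authors trimmed reads with cutadapt 1.18, aligned them to mm10 with STAR 2.5.2b and estimated isoform abundance with RSEM 1.3.0 on the GENCODE M16 annotation, and deposited expected counts per isoform, which are not normalized. The strand setting of the counting is not given in the sources used here. Gene sums added the isoforms of a symbol. Sums and isoforms were rounded, filtered (edgeR filterByExpr, minimum count 10, minimum total 15) and compared between genotypes with edgeR 4.0.16 (TMM, robust quasi-likelihood test, Benjamini-Hochberg over all features, threshold 0.05), with DESeq2 1.42.0 and limma-voom 3.58.1 as alternatives under R 4.3.3. Normalized counts are counts scaled to the mean effective library. Shares are percentages of a gene's expected count, tested by exact permutation (SciPy 1.17.1) where 2 isoforms held at least 5% and every mouse at least 100 counts. Isoform structures and lengths came from GENCODE M21, in which 130921 isoforms had the same version. Htr4-201 had another version, whose length was used. Replicates are separate mice by their animal tags. The procedures were tested on simulated counts. The members and gene lists were chosen with earlier results of these data known. The genes named are the 10 members, isoforms with a mean share of at least 5% or without overlap, list genes at an unadjusted p under 0.05 without overlap (at most 3 a list), Chrnb2, Chrm4, Htr2a, Cnr2, Ttr, Snap25 and Rbfox1. Htr2c-202 and Chrna7-202 were named after their values were seen, as were the editing enzymes and Xist.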

Additional observations from a re-analysis of the deposited data

How the results depend on the processing

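The alternatives left 0 of 10 member gene sums, 0 of 16 tested isoforms and 0 of 130 further list genes past an adjusted p of 0.05, over every alternative that was run for each. With 3 mice in a genotype, and with isoform estimates that rest on few distinguishing reads, differences of the size seen here for Htr2c could not be separated from the spread between mice. Htr2c-207 was assigned 177.1 to 1450.7 expected counts over its whole length. Only the read pairs across its 1 junction mark it, and their number is not given by these counts. Htr2c-201 has 0 bases and 0 junctions found in no other isoform. Share counts moved, and 1 of 8 member shares separated the genotypes per annotated length. The count was 0 to 2 when 1 mouse was left out. It was 3 without the 2 mice high in choroid plexus markers, an alternative chosen after seeing the data that leaves 2 mice a genotype. Smaller groups fail to overlap more often, and the share over all isoforms was not counted under any of these settings. These counts therefore decide nothing about the genotypes. The replicate numbers did not pair the mice (correlations of same-numbered deviations 0.378, -0.095 and -0.211, and not every mouse matched best with its own number). Under the replicate block 0 of 10 gene sums passed, and the Htr2c-207 log2 difference turned from 0.135 to -0.437. The differences that changed sign all had an adjusted p above the threshold, and the cause was not tested. Without the 2 mice high in choroid plexus markers the log2 differences were 0.049 (Chrm1), -0.052 (Chrm2), -0.047 (Htr2c), 0.014 (Chrm1-202), -0.06 (Chrm2-202), -0.039 (Htr2c-202) and -0.789 (Htr2c-207). Under limma-voom they were -0.007 (Chrm1-201), -1.087 (Htr2c-202) and -0.258 (Htr2c-207), and without replicate 1 of both genotypes 0.058 (Chrm1-203) and -0.094 (Chrm3-201). Leaving out 1 mouse at a time, the gene sums ranged from -0.054 to 0.053 for Chrm1, -0.013 to 0.106 for Chrm2, -0.011 to 0.045 for Cnr1 and -0.217 to 0.499 for Htr2c, and, with no change of sign, from -0.166 to -0.018 for Chrm3, -0.179 to -0.027 for Chrna4, 0.086 to 0.234 for Htr4 and -0.197 to -0.065 for Htr5a. The Htr2c-207 share difference ranged from -10.5 to -1.18 percentage points. The isoforms ranged from -0.035 to 0.068 for Chrm1-201, -0.118 to 0.012 for Chrm1-202, -0.214 to 0.092 for Chrm1-203, -0.019 to 0.102 for Chrm2-202, -0.11 to 0.11 for Chrm3-201, -0.049 to 0.456 for Htr2c-201, -0.513 to 1.116 for Htr2c-202 and -1.317 to 0.661 for Htr2c-207. With the longest isoform as length, the levels of Chrm1, Chrm3 and Chrna7 were 42.5, 13.5 and 5.86 CPM per kilobase. Htr1a stayed lower (log2 -0.215 to -0.151) and Chrna7 higher (0.157 to 0.283) under every alternative run. Neither gene overlapped between the genotypes, so leaving out mice could hardly turn the sign. The steady direction therefore adds no evidence for a difference.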
